A study of Mus musculus with 24 samples.

Results

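The lung response of Tlr4-mutant mice to 6 h of ozone was measured on 6 of the 24 arrays of the series, 3 from HeJ mice exposed for 6 h and 3 from HeJ mice that breathed air. They were chosen by their labels alone, and all 8008 genes tested were considered. HeJ is C3H/HeJ, an inbred mouse strain whose Tlr4 is described in the study's design as dominant negative. All 6 mice carry this allele, exposed and air mice alike, so the comparison shows the response in its presence and not its effect. The related strain C3H/HeOuJ (OuJ), whose Tlr4 is sufficient, provides 3 mice after 6 h of ozone and 3 in air, and the other 12 arrays are from 24 and 48 h of ozone in both strains. Every array holds RNA of the left lung lobe of 1 male mouse. Ozone concentration, mouse age and the hour of sampling are not stated in the sources.

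Ozone is an oxidant gas that reacts with the lipids and proteins of the airway lining fluid. TLR4 is the receptor for bacterial lipopolysaccharide, signals with its partner MD-2 (Ly96) and the co-receptor CD14 through the adaptors MyD88 and TRIF to NF-kB, and has been linked in mice to lung permeability and inflammation in ozone. Acute exposure to ozone in rodents is also known to release glucocorticoids from the adrenal gland, to induce antioxidant genes through the transcription factor NRF2, and to induce metallothioneins, small proteins that bind zinc and scavenge oxidants.

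All values are array signals in the deposited linear units, and differences are those of log2(signal + 16), which understates the change of dim genes. The median signal of the 6 HeJ arrays ranged from 211.1 to 227.15, and their number limits the precision of every value. The most abundant transcripts were those of a lung: Sftpc, the surfactant protein of alveolar type 2 cells, had signals of 36944.7, 33943.6 and 34574.7 after ozone, against 38614.9, 38758.2 and 39701.8 in air. The exposed arrays stood at different distances from air. Replicate 1, 2 and 3 of the exposed mice had 37, 73 and 158 genes over 1 log2 unit from the air mean, while the air arrays, which enter that mean, had 14, 15 and 19. Exposed replicate 3 correlated with the air arrays at a Pearson r of 0.951 to 0.956 and exposed replicate 1 at 0.973 to 0.975, taken over probe sets that do not vary independently. No pair of arrays held identical values. The ratio of the 5' to the 3' probe set of Gapdh, a sign of RNA quality, was 0.640 ± 0.0661 after ozone and 0.558 ± 0.0566 in air (SD, n = 3 each, two-sided exact permutation p = 0.3, adjusted 0.5 over 2 ratios, smallest possible p = 0.1), and that of actin was 0.676 ± 0.0288 and 0.650 ± 0.0680 (exact permutation p = 0.5, adjusted 0.5).

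Tlr4 itself did not pass the test: its signals were 224.8, 187.5 and 265.1 after ozone and 244.4, 213.2 and 227.8 in air, a difference of -0.03 ± 0.17. The HeJ allele is known as a missense change, which a transcript level does not read, so this is no check of the genotype. Cd14 stood at 0.04 ± 0.14, with 1084.0, 1176.3 and 797.6 after ozone against 1029.5, 940.0 and 963.2 in air. Ly96 was not measured.

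Of the 8008 genes tested with limma, 3 (0.0375%) passed an adjusted p of 0.05 between HeJ lungs after 6 h of ozone and in air. Wdr36 rose (0.0125% of genes), and Wnt3a and Lum fell (0.0250%). With each array centred on its median instead, 1 gene rose and 1 fell. At an unadjusted p under 0.05 stood 721 genes (9.0%), 320 of them higher (4.0%) and 401 lower (5.01%). In 994 genes (12.4%) the values of the exposed and air arrays did not overlap, with 431 higher (5.38%) and 563 lower (7.03%). The median difference over all genes was -0.02, and 5% of genes lay below -0.35 and 5% above 0.33. In 24 genes the difference exceeded 1 log2 unit, 17 higher and 7 lower, and all but Wdr36 among them missed the adjusted threshold.

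Wdr36 encodes a WD-repeat protein of the small subunit processome, the nucleolar particle that processes the precursor of 18S ribosomal RNA. It had signals of 376.8, 286.6 and 264.9 after ozone, against 37.5, 37.0 and 161.5 in air. The groups did not overlap, and 2 of the 3 air arrays were far below the other. The difference was 2.02 ± 0.36 (SE), adjusted p = 0.0446. In OuJ the same probe set gave 110.8, 234.5 and 224.5 after ozone and 154.7, 196.0 and 277.7 in air, so the exposed HeJ arrays lay in or above the upper range of OuJ and the HeJ air arrays lay in or below its lower range. Of 31 measured genes of ribosome biogenesis 12 were higher and 19 lower, and the median was -0.01. Wdr36 alone was higher at an unadjusted p, against 4.0% of all genes.

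Wnt3a, a secreted ligand of the canonical Wnt pathway, had signals of 252.8, 255.9 and 206.8 after ozone and 435.7, 429.6 and 428.3 in air. The 3 air values lay within a narrow range well above the exposed ones. It fell by 0.82 ± 0.14 on the log2 scale, adjusted p = 0.0391. In OuJ it had 222.6, 288.0 and 273.1 after ozone and 438.2, 413.5 and 345.9 in air, a difference of -0.58 ± 0.14 with an adjusted p of 0.0623, and the difference between the strains was -0.24 with an adjusted p of 0.927. Of 28 measured Wnt ligands, receptors and targets, 0 were higher and 3 lower at an unadjusted p, against 4.0% and 5.01% of all genes. Their median was -0.07. The other members named there were Ccnd1 (-0.38 ± 0.15), a cyclin and Wnt target, and Sfrp1 (-0.99 ± 0.44), a secreted Wnt antagonist whose other probe set gave 0.16.

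Lum encodes lumican, a small leucine-rich proteoglycan that binds collagen fibrils. It had signals of 270.3, 250 and 202.5 after ozone and 419.9, 435.6 and 410.0 in air, with no overlap. It fell by 0.78 ± 0.14 on the log2 scale, adjusted p = 0.0446. In OuJ it had 305.3, 404.2 and 417.0 after ozone and 383.7, 314.7 and 444.4 in air, a difference of -0.02. The test of the difference between the strains, -0.76, had an adjusted p of 0.592. Of 7 measured small leucine-rich proteoglycans 4 were higher and 3 lower, with a median of 0.04.

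These 3 calls rest on the spread pooled over all 24 arrays. In the fit on the 6 HeJ arrays alone, and in the fit on the 12 arrays from air or 6 h in either strain, which share series 3 of the sample codes, 0 genes passed, with 527 and 679 at an unadjusted p under 0.05.

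**Figure D1:**
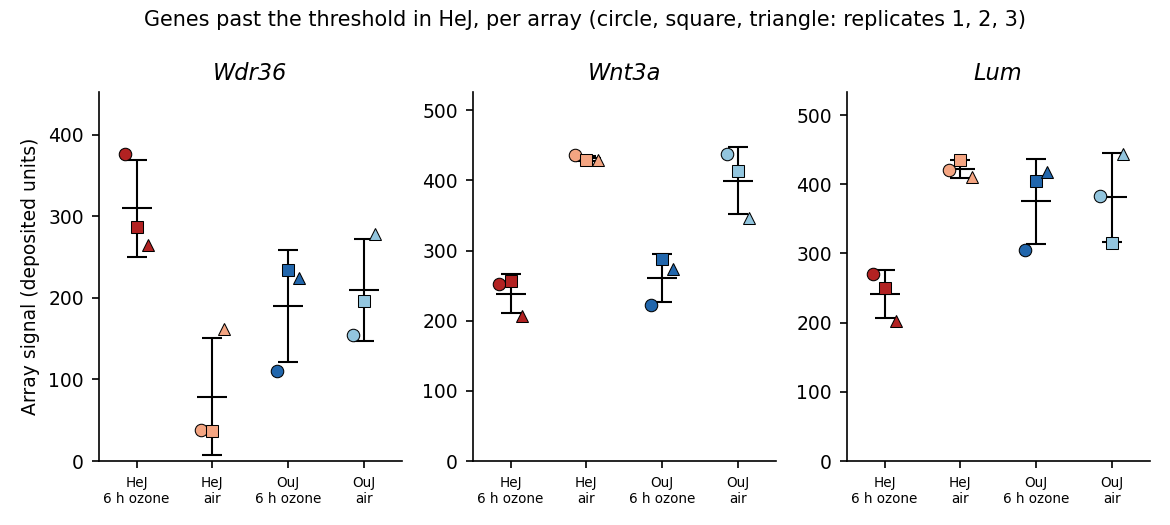
Array signals, in deposited linear units, of the 3 genes that passed in HeJ, with HeJ lungs on the left and OuJ lungs on the right of each panel, 6 h of ozone before air. Points are mice, and bars are mean ± SD of 3 mice. The HeJ groups do not overlap in any of the 3 genes, and Lum and Wdr36 overlap in OuJ.

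Among genes at an unadjusted p under 0.05 whose groups did not overlap, the 12 with the largest positive differences were Wdr36, Hspa1b, Agfg2, Rgcc, Wdr4, Cxcl1, Cebpd, Ptgs2, Ddit4, Osgin1, Timp4 and Ubac2. Rgcc, a regulator of cell cycle progression, had 1691.3, 3762.7 and 5570.4 after ozone and 1195.8, 1369.1 and 1575.3 in air, a difference of 1.25 ± 0.29 with an adjusted p of 0.193. Cebpd, a transcription factor of the acute phase and of glucocorticoid responses, had 2214.4, 3261.1 and 4870.7 after ozone and 1055.7, 1445.7 and 2148.3 in air, a difference of 1.13 ± 0.26 with the same adjusted p. The other Cebpd probe set gave 0.33 (unadjusted p = 0.147). In both genes exposed replicate 1 lay just above the highest air mouse and exposed replicate 3 far above it. Ptgs2, the inducible cyclooxygenase of prostaglandin synthesis, had 185.1, 228.2 and 119.0 after ozone and 79.6, 63.3 and 77.2 in air, a difference of 1.08 ± 0.25 with an adjusted p of 0.202. Osgin1, an oxidative stress-induced growth inhibitor, had 346.7, 359.2 and 335.3 after ozone and 152.2, 147.7 and 224.2 in air, a difference of 0.95 ± 0.22 with the same adjusted p. Here the 3 exposed mice were alike. Hspa1b (1.34 ± 0.62), Agfg2 (1.34 ± 0.40), Wdr4 (1.24 ± 0.33), Timp4 (0.91 ± 0.28), Ubac2 (0.89 ± 0.36) and Cxcl1 (1.19 ± 0.43) had air signals of at most 350.7, and Ddit4, an inhibitor of mTOR signalling, stood at 0.95 ± 0.33. The other probe set of Wdr4 gave 0.12 and that of Ubac2 gave 0.23.

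The 12 largest negative differences were those of Gab2, Serf1, Cdr2l, Steap3, Sfrp1, Fabp1, Tubb4a, Ckap2, Oas3, Wnt3a, Ms4a4b and Tubb6. Tubb4a, a beta tubulin, had 267.8, 238.4 and 142.1 after ozone and 432.8, 423.9 and 353.3 in air, a difference of -0.89 ± 0.18 with an adjusted p of 0.0705. Fabp1, a fatty acid binding protein, had 376.6, 194.0 and 117.3 after ozone and 435.9, 422.3 and 416.5 in air, a difference of -0.99 ± 0.28 with an adjusted p of 0.268, and its other probe set gave -0.35. In OuJ these differed by 0.11 and -0.17. Gab2 (-1.49 ± 0.71), Serf1 (-1.48 ± 0.62), Cdr2l (-1.08 ± 0.49), Steap3 (-0.99 ± 0.38), Ckap2 (-0.86 ± 0.39), Oas3 (-0.86 ± 0.39) and Tubb6 (-0.81 ± 0.29) had adjusted p-values from 0.416 to 0.550. All 12 were dim genes, with no HeJ signal above 496.4.

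The glucocorticoid-responsive genes had the list median furthest from that of all genes, a rank that rests on 1 mouse. Without exposed replicate 3 their median was 0.25, against -0.80 for cardiac muscle and 0.51 for adipose markers. Glucocorticoids bind the nuclear receptor Nr3c1, which activates genes through paired copies of a 6-base core. Of 26 measured members 0 passed the adjusted test, 17 were higher and 0 lower at an unadjusted p, and in 4 the exposed mice lay above all air mice, against 4.0% and 5.38% of all genes. The median difference was 0.66, against -0.02 over all genes, and 23 of the 26 were higher, against 44.81% of all genes. Tsc22d3 (GILZ), a glucocorticoid-induced anti-inflammatory protein, had 2360.5, 4189.8 and 5960.5 after ozone and 1201.6, 2585.4 and 1888.8 in air, a difference of 1.10 ± 0.28 with an adjusted p of 0.210, and its other probe sets gave 0.93 and 0.28. Fkbp5, a cochaperone that dampens the receptor, had 492.8, 715.9 and 1444.5 after ozone and 404.3, 397.4 and 479.5 in air (0.89 ± 0.39). In each the exposed mice spread over a wider range than the air mice. Glul, glutamine synthetase, stood at 0.89 ± 0.24, the Krüppel-like factor Klf9 at 0.69 ± 0.18 and the clock gene Per1, a direct target of the receptor, at 0.46 ± 0.18. Zbtb16, a zinc finger repressor singled out after its values were seen, had the largest mean difference of the list, 1.405 ± 0.47, with 102.4, 615.1 and 963.7 after ozone against 142.3, 108.0 and 185.0 in air. Nr3c1 itself stood at -0.06 ± 0.13.

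The size of this shift differed from mouse to mouse. Exposed replicate 1 had a median of 0.06 above the air mean over the 26 members, replicate 2 of 0.57 and replicate 3 of 1.24. In replicate 1 only 5 of the 26 members lay above all 3 air arrays, in replicate 2 18 and in replicate 3 23, while 22.8%, 22.5% and 26.8% of all genes did so in the same arrays. The mean log2 level of the list was 10.37, 10.90 and 11.56 in the exposed mice, against 10.25, 10.41 and 10.42 in air. In OuJ it was 11.44, 10.77 and 11.27 after ozone and 10.23, 10.41 and 10.41 in air, so there too 1 exposed mouse was lower than the other 2. The HeJ median was 0.92 without exposed replicate 1, 0.65 without replicate 2 and 0.25 without replicate 3.

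Leaving out 1 exposed mouse decided how many genes passed. Without exposed replicate 1, 59 of the 8008 genes passed the adjusted test, 31 higher and 28 lower. Members of the glucocorticoid list, with 26 measured, made up 11 of the 59, all higher. That mouse lay nearest to air in this list, at a median of 0.06, so leaving it out enlarges the list's differences by construction. Among the 11 were Zbtb16 (2.32), Sult1a1 (1.83), Map3k6 (1.47), Tsc22d3 (1.46), Cebpd (1.41), Glul (1.28), Klf15 (1.16), Mt2 (1.01) and Klf9 (0.91). Outside that list Rgcc (1.73), lipoprotein lipase Lpl (1.03), Cd74 (-0.58), the invariant chain of MHC class II, and the elastic fibre protein Mfap4 (-0.93) passed as well. Without exposed replicate 2 or replicate 3, 0 genes passed. Nothing in the labels sets replicate 1 apart, and why it lay nearer to air was not tested.

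**Figure D2:**
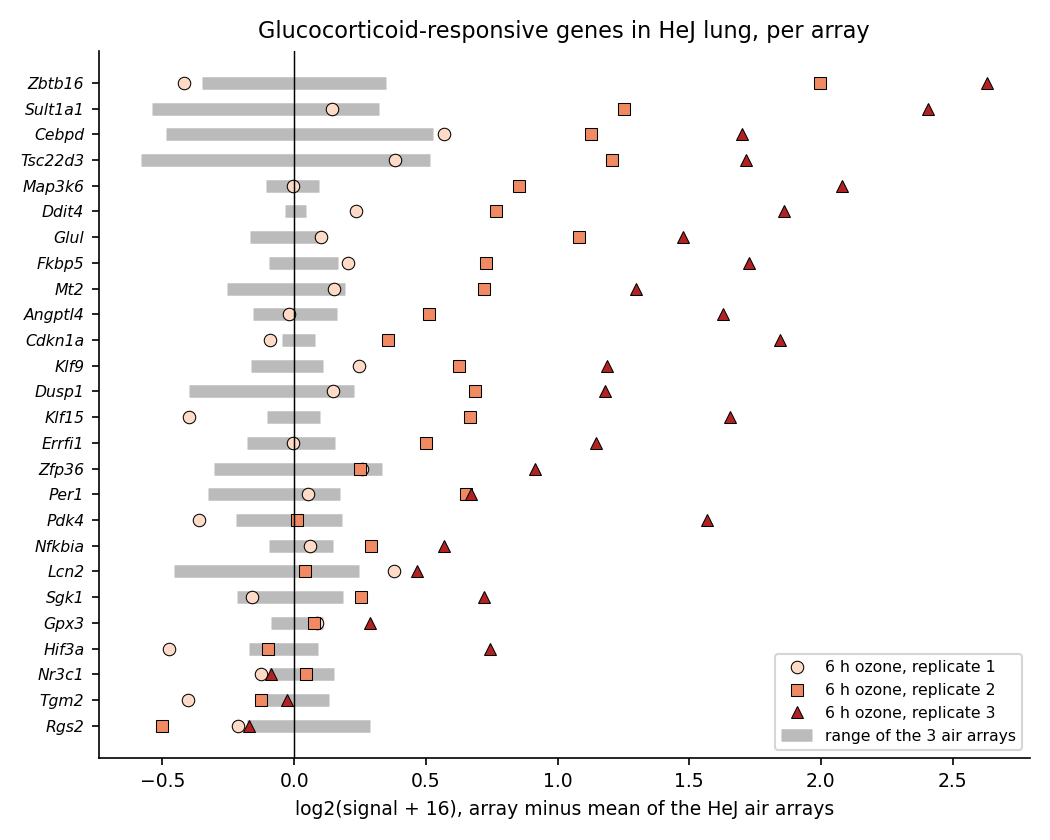
Difference of each exposed HeJ array from the mean of the HeJ air arrays, in log2(signal + 16), for the 26 measured glucocorticoid-responsive genes ordered by their mean difference. Points are exposed mice and grey bars the range of the 3 air mice. Replicate 1 lies above the air range in 5 genes, replicate 2 in 18 and replicate 3 in 23.

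Promoters of the list were searched for AGAACA, the core that the receptor binds in pairs, on both strands from 250 bases before to 50 after the start of transcription. RefSeq promoters of build GRCm38.p6, which is the sequence of strain C57BL/6J and not of HeJ, were found for 21 of the 26 members. The core was found in 6 of their 31 promoters (19.35%), against 18.97% of all 32851 promoters and 12.42% of the 8422 promoters of genes tested. They belonged to 4 genes: Sgk1, Gpx3, Tsc22d3 and Sult1a1. Sgk1 stood at 0.27. In 1 of its 6 promoters the core starts 242, 189 and 180 bases before the start of transcription. The last 2 of these matches lie close together on opposite strands. Shown are the promoters with a match of the 2 of these genes that differed most, chosen after their values were seen. Neither of those shown holds 2 matches close together. Sult1a1, a sulfotransferase, had 725.3, 1585.5 and 3541.6 after ozone and 446.1, 765.8 and 823.0 in air (1.27 ± 0.40). The Tsc22d3 promoter is at chrX:140600473-140600772, minus strand, 1 of 3 in the table, and the Sult1a1 promoter at chr7:126676369-126676668, minus strand. Capitals mark the core on either strand, starting 185 bases before the Tsc22d3 start and 212 and 34 bases before the Sult1a1 start. A match is a description of the sequence and not a bound site.
Tsc22d3: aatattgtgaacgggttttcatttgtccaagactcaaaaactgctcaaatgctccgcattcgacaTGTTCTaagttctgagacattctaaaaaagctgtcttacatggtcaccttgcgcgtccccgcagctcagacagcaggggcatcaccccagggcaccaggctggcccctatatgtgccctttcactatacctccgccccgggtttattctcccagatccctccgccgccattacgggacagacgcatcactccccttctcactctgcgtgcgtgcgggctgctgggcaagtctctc
Sult1a1: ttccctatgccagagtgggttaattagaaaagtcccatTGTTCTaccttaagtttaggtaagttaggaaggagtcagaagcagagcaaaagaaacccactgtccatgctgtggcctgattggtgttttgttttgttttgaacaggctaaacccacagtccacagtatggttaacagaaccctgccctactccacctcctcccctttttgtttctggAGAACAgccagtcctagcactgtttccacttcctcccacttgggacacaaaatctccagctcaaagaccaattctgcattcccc

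Metallothioneins buffer zinc and copper, and their genes answer both to metals, through the factor MTF1, and to glucocorticoids. Mt2 had 1775.2, 2641.9 and 3949.8 after ozone and 1336.6, 1664.6 and 1826.6 in HeJ air, so exposed replicate 1 lay among the air mice. The difference was 0.72 ± 0.21 with an adjusted p of 0.296. Mt1 had 2292.7, 2509.8 and 2846.8 after ozone and 2036.7, 2496.5 and 2204.3 in air, a difference of 0.18 ± 0.19. Of 14 measured metallothioneins and zinc transporters 1, Mt2, was higher at an unadjusted p, against 4.0% of all genes, and the median was 0.03. Both promoters are shown because both genes passed in OuJ and neither did in HeJ. They were searched on both strands for the metal response cores TGCACNC and TGCGCNC, which occur in 12.59% and 15.39% of all promoters and in 12.8% and 26.13% of those of genes tested. Mt2 lies at chr8:94172368-94172667, plus strand, and holds 4 matches, and Mt1 lies at chr8:94178839-94179138, plus strand, and holds 3. Capitals mark the matches, which do not overlap. Neither promoter holds the 6-base core AGAACA.
Mt2: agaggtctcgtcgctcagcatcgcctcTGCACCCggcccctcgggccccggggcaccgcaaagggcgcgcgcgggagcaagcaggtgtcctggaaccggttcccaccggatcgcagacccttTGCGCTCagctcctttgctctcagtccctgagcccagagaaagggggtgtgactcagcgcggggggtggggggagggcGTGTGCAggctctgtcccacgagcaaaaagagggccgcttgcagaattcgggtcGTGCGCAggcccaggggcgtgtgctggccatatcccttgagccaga
Mt1: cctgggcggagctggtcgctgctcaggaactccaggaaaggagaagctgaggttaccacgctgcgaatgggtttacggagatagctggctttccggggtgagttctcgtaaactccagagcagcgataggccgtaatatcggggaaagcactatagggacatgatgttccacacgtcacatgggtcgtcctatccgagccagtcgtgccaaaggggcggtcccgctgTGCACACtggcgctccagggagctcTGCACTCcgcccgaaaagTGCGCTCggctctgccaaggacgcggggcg

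NRF2, encoded by Nfe2l2, activates genes of glutathione synthesis, quinone reduction and thioredoxin recycling after oxidant stress. Of 34 measured members 0 passed the adjusted test, 7 were higher and 0 lower at an unadjusted p, where 4.0% and 5.01% of all genes stood, and the median was 0.07. In 7 members the exposed arrays lay above all air arrays and in 1 below, against 5.38% and 7.03% of all genes. Aldh3a1, an aldehyde dehydrogenase, had 396.2, 402.6 and 370.9 after ozone and 262.3, 255.5 and 274.8 in air, a difference of 0.53 ± 0.13 with an adjusted p of 0.202. Nfe2l2 itself had 2251.9, 2546.1 and 2440.9 after ozone and 1625.0, 1936.0 and 1748.9 in air (0.45 ± 0.13). Gsta3, a glutathione transferase, had 731.6, 841.4 and 1039.7 after ozone and 582.8, 505.2 and 575.4 in air (0.62 ± 0.17). In these 3 genes all exposed mice, replicate 1 included, lay above all air mice. Gclc, the catalytic subunit of the enzyme that opens glutathione synthesis, had 1024.8, 1641.4 and 1063.4 after ozone and 763.3, 722.1 and 907.2 in air (0.60 ± 0.22). Heme oxygenase Hmox1 (-0.11 ± 0.36) and the quinone reductase Nqo1 (-0.02 ± 0.19) stood near 0.

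Genes of TLR4 signalling and inflammatory mediators are read against the 9.0% of all genes at an unadjusted p, 4.0% higher and 5.01% lower. Of 13 measured genes of the TLR4 complex and its adaptors 1, the lipopolysaccharide binding protein Lbp (0.32 ± 0.13), was higher at an unadjusted p, and the median was 0.00. Of 13 NF-kB subunits and inhibitors 1 was higher, the inhibitor Nfkbia (0.31 ± 0.13), which is also in the glucocorticoid list. In the other direction 1 was lower, Nfkb2, whose 2 probe sets differed in sign (-0.67 and 0.59). Of 16 measured cytokines and chemokines 1 was higher and 1 lower. These counts are near the share over all genes. Cxcl1, a neutrophil attractant, had 193.4, 102.8 and 129.6 after ozone and 88.4, 71.5 and 17.4 in air, all below the array medians. In OuJ Cxcl1 differed by 1.25 ± 0.43. Cxcl12, a chemokine of stromal cells, had 3932.6, 3135.3 and 1938.0 after ozone and 4380.6, 4588.5 and 4457.2 in air (-0.63 ± 0.23). Il1b stood at -0.34 ± 0.18. The acute phase and secreted defence proteins were higher in all 11 measured members, against 44.81% of all genes, and 3 of them were so at an unadjusted p. Their median was 0.23, and Lcn2 belongs to this list and to the glucocorticoid list. Serpina3n, a protease inhibitor, had 527.7, 670.9 and 1089.9 after ozone and 473.2, 435.1 and 424.0 in air (0.70 ± 0.21), Lrg1 stood at 0.59 ± 0.28 and Chil3, a chitinase-like protein of macrophages, at 0.37 ± 0.17. Of 15 prostaglandin and leukotriene enzymes Ptgs2 and Hpgd (0.51 ± 0.18), which degrades prostaglandins, were higher at an unadjusted p, and the other probe set of Hpgd gave 0.03.

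The lists of early response, stress and clock genes are read against the 4.0% of all genes higher and 5.01% lower at an unadjusted p. Immediate early transcription factors are induced without new protein synthesis. Of 19 measured, 6 were higher and 0 lower at an unadjusted p. Their median was 0.23, or 0.08 without exposed replicate 3 and 0.14 without air replicate 1. Fos had 3781.6, 4124.4 and 7179.1 after ozone and 2326.4, 3733.4 and 3202.5 in air (0.67 ± 0.27). In OuJ it had 1332.3, 1424.4 and 982.5 after ozone and 1375.5, 1816.3 and 3687.6 in air. These groups overlapped, and 1 air mouse was far above the others. The OuJ difference was -0.76, and the difference between the strains, 1.43, had an adjusted p of 0.592. Maff, a small Maf protein, stood at 0.88 ± 0.26, Egr3 at 0.81 ± 0.32 and Klf6 at 0.42 ± 0.13. Of 22 measured heat shock proteins and cochaperones 1 was higher at an unadjusted p, Hspa1b, with 375.4, 287.8 and 990.8 after ozone and 199.9, 216.3 and 130.5 in air. Its near-identical copy Hspa1a had 169.4, 134.9 and 501.6 after ozone and 121.9, 94.8 and 148.3 in air (0.84 ± 0.63), and the 2 copies may share signal on the array. In both genes exposed replicate 3 was the highest mouse. In the unfolded protein response 4 of 26 were higher and 1 lower at an unadjusted p, among them the chaperone Dnajc3 (0.44 ± 0.12), the degradation factor Edem1 (0.52 ± 0.14) and Herpud1 (0.36 ± 0.16) on the one side and on the other the transcription factor Ddit3 (CHOP), which had 337.2, 401.7 and 394.1 after ozone and 574.2, 565.7 and 527.0 in air (-0.54 ± 0.16). The other probe set of Edem1 gave 0.16, and those of Dnajc3 ranged from 0.03 to 0.51. Of 15 p53 targets Trp53inp1 (0.78 ± 0.28) and Btg2 (0.38 ± 0.18) were higher at an unadjusted p. Of 17 clock genes Per1 alone, also in the glucocorticoid list, was higher at an unadjusted p, and the median of the clock genes was 0.13.

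Cell cycle genes stood below the median of all genes. Of 15 measured genes of mitosis and the spindle 0 were higher and 3 lower at an unadjusted p, against 4.0% and 5.01% of all genes. In 6 the exposed arrays lay below all air arrays, against 7.03% of all genes. The median was -0.36, or -0.20 without air replicate 1. Stmn1, a microtubule destabiliser, had 2581.0, 2239.5 and 2357.2 after ozone and 3052.2, 3105.6 and 3205.3 in air (-0.38 ± 0.12). Cyclin Ccnb2 (-0.62 ± 0.25) and the ubiquitin conjugase Ube2c (-0.49 ± 0.20) had no HeJ signal above 266.9. The mean level of the list in the air mice, 7.98, 7.36 and 7.68, spread over a range that reached the exposed mice at 7.52, 7.31 and 7.16. Of 17 genes of DNA replication and nucleotide synthesis 0 were higher and 4 lower, with a median of -0.19. Mcm5 (-0.79 ± 0.22), Mcm6 (-0.55 ± 0.20) and Mcm3 (-0.33 ± 0.16) are subunits of the replicative helicase, and Rrm2 (-0.45 ± 0.18), of ribonucleotide reductase, had probe sets that differed in sign. In OuJ the medians of both lists were -0.09 and -0.16.

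Several markers of lymphocytes were lower in exposed HeJ lungs at an unadjusted p. In whole lobes, fewer cells of a type and less RNA per cell cannot be told apart. Of 11 measured T and NK cell markers 0 passed the adjusted test, 0 were higher and 6 lower at an unadjusted p, against 4.0% and 5.01% of all genes. In 6 the exposed arrays lay below all air arrays, against 7.03% of all genes, and the median was -0.41. Their summed signal was 2508.3 to 3861.2 after ozone and 4268.7 to 4683.7 in air, with no overlap. Nkg7, a granule protein of NK and cytotoxic T cells, had 282.4, 256.1 and 147.6 after ozone and 388.7, 455.3 and 339.8 in air (-0.78 ± 0.22). Cd3d, a subunit of the T cell receptor complex, had 322.5, 214.3 and 36.9 after ozone and 417.3, 425.6 and 282.0 in air (-1.26 ± 0.55), and Thy1 (-0.31 ± 0.12) is also made by fibroblasts. Ms4a4b, a T cell membrane protein, stood at -0.81 ± 0.30. Of 10 B cell markers 3 were lower and 0 higher at an unadjusted p, with a median of -0.37 that was -0.23 without exposed replicate 3. They were Cd79a (-0.67 ± 0.23) and Blnk (-0.55 ± 0.22), both of B cell receptor signalling, and Cd22 (-0.42 ± 0.16). By sign alone 3 of the 10 B cell markers stood higher, up to 0.40, and 7 lower. The summed B cell signal overlapped between the groups, 11259.8 to 14350.8 after ozone and 9047.1 to 14150.3 in air. In OuJ the medians were -0.28 for T and NK cells and -0.39 for B cells.

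Antigen presentation by MHC class II stood below air as well, with 0 higher and 3 lower of 10 members at an unadjusted p. Of all genes 4.0% were higher and 5.01% lower there, shares that the later counts are read against too. The list median was -0.29, or -0.17 without exposed replicate 3 and -0.43 without replicate 1. Cd74 had 16313.9, 11928.2 and 10445.4 after ozone and 16910.5, 16750.4 and 16555.0 in air (-0.40 ± 0.13, adjusted p = 0.339), so exposed replicate 1 lay close to the air mice. H2-Oa (-0.57 ± 0.16) and H2-DMa (-0.49 ± 0.17), which govern peptide loading, were lower too. These genes are made by B cells, dendritic cells and macrophages, whose markers are given here, and the part of those cells in the values was not tested. Of 5 dendritic cell markers 1 was lower, Irf8, whose probe sets differed in sign (-0.31 and 0.07). Of 16 macrophage markers 1 was higher (Chil3) and the median was -0.05, with Marco, a scavenger receptor of alveolar macrophages, at 0.06 ± 0.42. Of 8 neutrophil markers S100a9 was lower, with 591.3, 674.8 and 415.0 after ozone and 1070.5, 758.4 and 902.4 in air (-0.70 ± 0.30), and the median was -0.30, or -0.11 without air replicate 1. Of 30 genes of the interferon response and MHC class I 0 were higher and 2 lower at an unadjusted p, the immunoproteasome subunits Psmb8 (-0.32 ± 0.13) and Psmb9 (-0.47 ± 0.23), with a median of -0.13 that ran from -0.23 without exposed replicate 1 to -0.04 without exposed replicate 3 or air replicate 1.

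**Figure D3:**
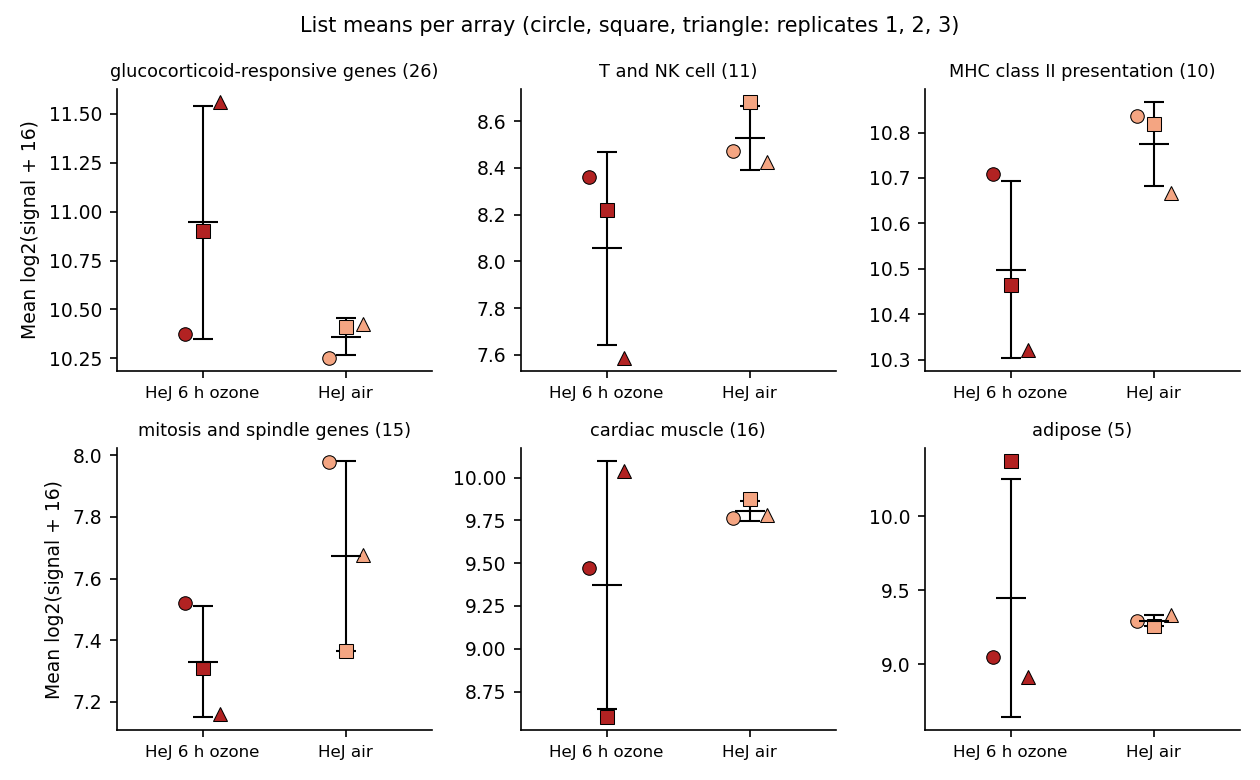
Mean log2(signal + 16) of 6 gene lists in each HeJ mouse, 6 h of ozone left of air, with the number of measured members in brackets. Points are mice, bars are mean ± SD of 3 mice, and the vertical axes do not start at 0. The T and NK cell list does not overlap between the groups, while exposed replicate 2 has the lowest cardiac and the highest adipose mean.

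Among 19 fibroblast markers Lum fell, and 1 was higher and 5 lower at an unadjusted p, against 4.0% and 5.01% of all genes. The median was -0.14, or -0.07 without exposed replicate 3, -0.24 without replicate 1 and -0.25 without air replicate 2. Mfap4 had 5805.6, 3009.9 and 3847.8 after ozone and 5897.6, 6731.1 and 6881.3 in air (-0.67 ± 0.16, adjusted p = 0.202), and Pi16, a marker of adventitial fibroblasts, had 225.7, 131.1 and 230.0 after ozone and 320.5, 302.5 and 400.1 in air (-0.78 ± 0.26). Exposed replicate 1 lay close to air for Mfap4 and not for Pi16. In OuJ both differed the other way, by 0.24 and 0.28, and the strain differences had adjusted p-values of 0.592 and 0.771. Of 18 collagens 2 were higher, the basement membrane chains Col4a4 (0.44 ± 0.21) and Col4a2 (0.25 ± 0.12), and 2 lower, the fibrillar chains Col5a1 (-0.51 ± 0.13) and Col1a1 (-0.35 ± 0.15). The other probe sets of Col5a1 and Col1a1 gave -0.07 and -0.04, with unadjusted p-values of 0.592 and 0.907. Of 27 elastic fibre and matrix enzyme genes Lox, which cross-links collagen and elastin, was higher at an unadjusted p through 1 mouse, with 788.9, 1230.2 and 5256.9 after ozone and 989.1, 1084.1 and 706.6 in air, and Mfap4 and Fbln5 (-0.28 ± 0.11) were lower. Bgn, biglycan, stood at 0.18 ± 0.09 with another probe set at -0.05.

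Epithelial lists stood near the median of all genes. At an unadjusted p 4.0% of all genes were higher and 5.01% lower. Of 17 alveolar type 2 markers 0 were at an unadjusted p in either direction, with a median of 0.02. Of 9 alveolar type 1 markers Rtkn2 (0.43 ± 0.16) was higher and the water channel Aqp5 (-0.41 ± 0.14) lower. Of 16 club cell markers 2 were higher, the monooxygenase Fmo2 (0.95 ± 0.35) and Gsta3, with a median of 0.13 that was 0.05 without exposed replicate 2. Of 23 endothelial markers 3 were higher and 2 lower, among them the receptor Flt1 (0.39 ± 0.14) and the phosphatase Ptprb (0.36 ± 0.16) against Icam2 (-0.38 ± 0.15) and Egfl7 (-0.36 ± 0.14). The other 3 probe sets of Egfl7 ranged up to 0.02, and those of Flt1 gave 0.05 each. Msln, a mesothelial marker, stood at 0.45 ± 0.19. Of 18 genes of lipid use in fasting Angptl4 (0.71 ± 0.27) and Lpl (0.64 ± 0.25) were higher, and of 11 genes around the EGF receptor its inhibitor Errfi1 (0.55 ± 0.20). Angptl4 and Errfi1 also belong to the glucocorticoid list. Of 17 genes of cholesterol synthesis Cyp51 (0.57 ± 0.20) was higher and Lss (-0.39 ± 0.17) and Hsd17b7 (-0.34 ± 0.16) lower.

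Markers of tissues that border the lung spread widely among the exposed mice. Cardiac muscle markers are in mice also made by the muscle of the pulmonary veins. Of 16 measured, 6 were lower at an unadjusted p, against 5.01% of all genes, and the median was -0.49. Their summed signal was 15400.8, 8330.5 and 21954.6 after ozone and 18225.5, 20661.4 and 20041.6 in air, so all 3 exposed mice lay outside the range of the air mice, 2 below and 1 above, with replicate 2 the lowest. Actc1 (-0.63 ± 0.24), Myl7 (-0.69 ± 0.29), Tnni3 (-0.62 ± 0.26) and Myl4 (-0.50 ± 0.23) all had their lowest value in that mouse, and Actc1 lay below air in all 3 exposed mice. The median was -0.08 without it and -0.80 without replicate 3. In OuJ the median of the list was 0.18. The 5 adipose markers had a summed signal of 3077.4, 8896.5 and 2761.7 after ozone and 3670.8 to 4070.2 in air, with 2 exposed mice below air and 1 above. Their median of 0.22 was -0.26 without replicate 2 and 0.51 without replicate 3. The part of these tissues in other values was not tested.

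**Figure D4:**
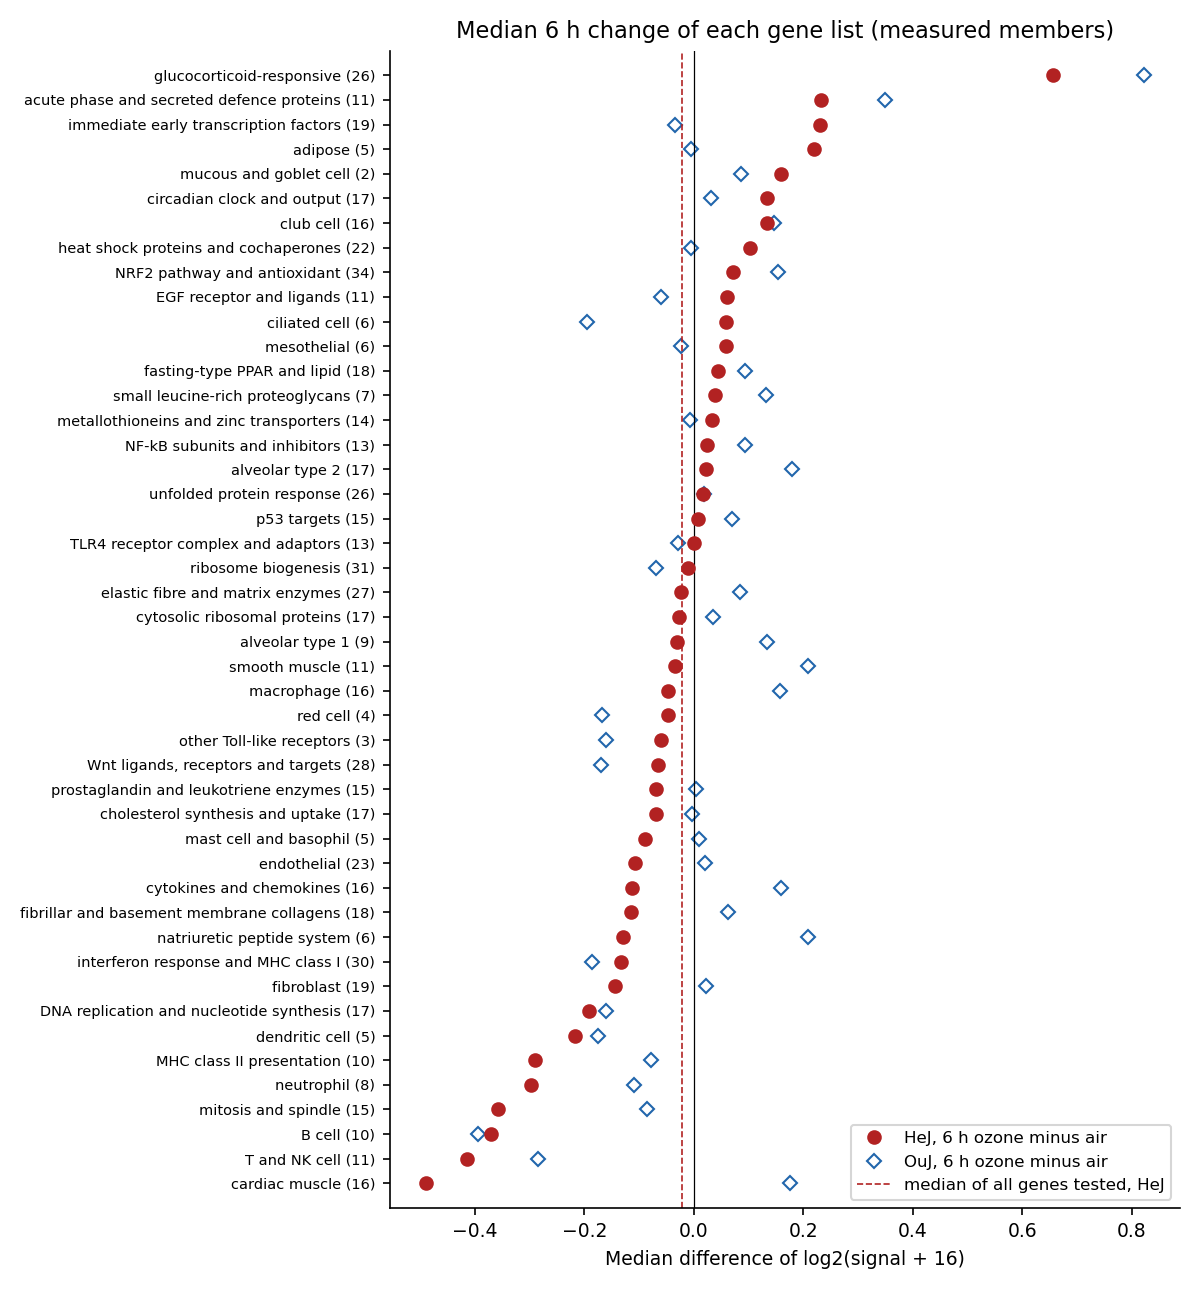
Median difference in log2(signal + 16) between 6 h of ozone and air for the 46 gene lists, in HeJ (filled circles) and OuJ (open diamonds), ordered by the HeJ value, with the number of measured members in brackets. The glucocorticoid list lies furthest to the right in both strains, at 0.66 in HeJ and 0.82 in OuJ, and the cardiac list furthest to the left in HeJ, at -0.49, against 0.18 in OuJ. Without exposed replicate 3 the HeJ glucocorticoid median is 0.25 and no longer furthest from 0.

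The same exposure in OuJ mice is set beside the HeJ response. The 2 comparisons share no array. RNA quality separated the strains in air and at 6 h. The 5' to 3' ratio of Gapdh was 0.511 to 0.714 in HeJ and 0.781 to 0.933 in OuJ. That of actin was 0.571 to 0.694 in HeJ and 0.759 to 0.911 in OuJ. The part of RNA quality in level differences between the strains, Wdr36 included, was not tested. Across the 8008 genes the 6 h differences correlated at a Pearson r of 0.293, as a description over genes that are not independent, and 4533 genes (56.6%) had the same sign. Of the 721 HeJ genes at an unadjusted p 494 (68.5%) had the same sign in OuJ, and 152 were at an unadjusted p and of the same sign in both strains, 21.1% of the HeJ genes and 18.2% of the 837 OuJ genes (10.5% of genes tested). Without overlap in OuJ stood 1357 genes (16.9%). The test of the difference between the strains passed in 1 gene (0.0125%), Npr3, and was at an unadjusted p under 0.05 in 460 (5.74%).

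Npr3 encodes the clearance receptor that removes natriuretic peptides. It had 914.8, 1125.9 and 1750.9 in HeJ after ozone and 1704.8, 1203.4 and 1327.3 in HeJ air, with overlapping groups and a difference of -0.20 ± 0.22. In OuJ it had 3045.9, 1495.0 and 3013.4 after ozone and 740.1, 561.8 and 667.9 in air, a rise of 1.85 ± 0.22. The HeJ difference minus the OuJ difference was -2.05 ± 0.31, adjusted p = 0.00773. No strain difference passed in the fit on the groups compared, which are code series 3, or without the arrays whose sample code has a suffix. None passed without HeJ air replicate 1, OuJ air replicate 2 or OuJ 6 h replicate 3 either. All 3 HeJ air mice lay above all 3 OuJ air mice, so the strains also differed in air, where their RNA quality ratios differed too.

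Of 8008 genes 11 (0.137%) passed in OuJ, and these were chosen here for their OuJ change. Mt2 had 3629.7, 2419.4 and 3777.7 after ozone and 863.8, 1054.0 and 868.1 in air there, Mt1 had 4286.3, 2191.4 and 4156.9 after ozone and 1563.1, 1318.4 and 1396.6 in air, and Gclc had 1677.3, 1717.8 and 1843.6 after ozone and 566.7, 709.6 and 717.4 in air. In all 3 genes the HeJ air mice lay above the OuJ air mice, for Gclc by a narrow margin. The HeJ difference was smaller than the OuJ difference by 1.06 in Mt1 and in Mt2 (-1.06 each, adjusted p = 0.592 and 0.701) and by 0.78 in Gclc (-0.78, adjusted p = 0.826). The cytoskeletal linker Dst had -0.08 ± 0.13 in HeJ and 0.79 ± 0.13 in OuJ (difference -0.87, adjusted p = 0.268). The remaining genes had, in HeJ, -0.30 (Rgs2), 0.13 (Hp), -0.19 (Gbp2b), 0.55 (Errfi1), -0.51 (Plac8) and -0.26 (Lmo2), each of the same sign as in OuJ. The strain difference of these 6 had adjusted p-values from 0.761 to 0.891, which does not show that the strains respond alike.

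**Figure D5:**
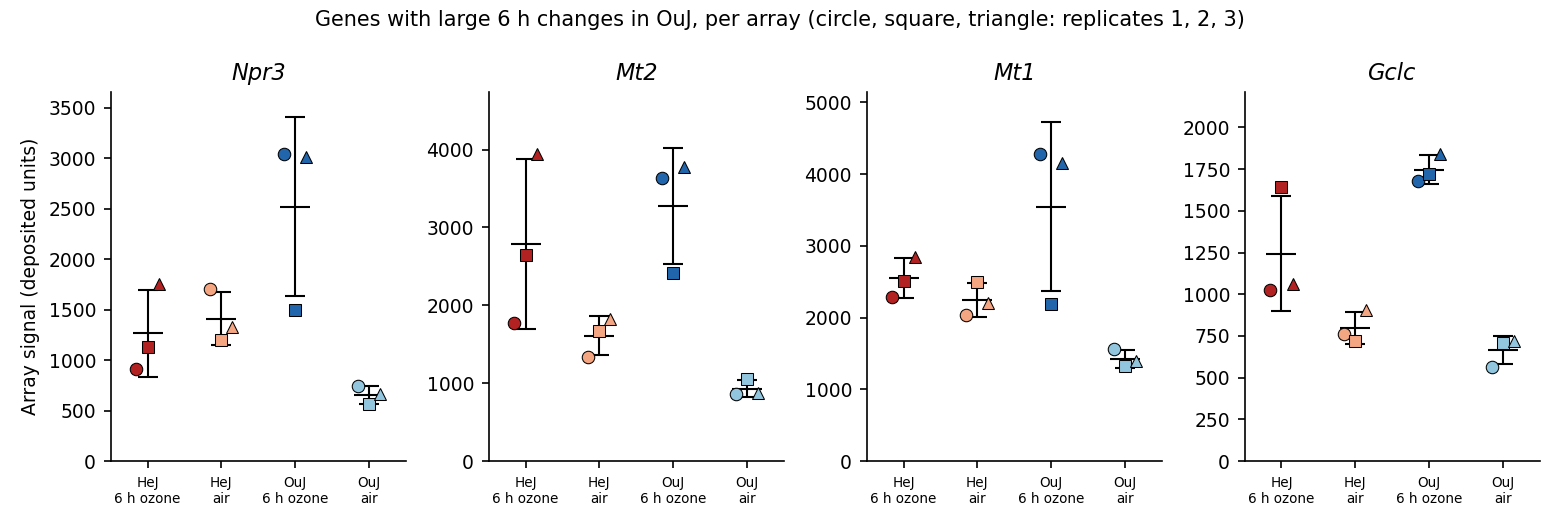
Array signals, in deposited linear units, of Npr3, Mt2, Mt1 and Gclc in HeJ (left) and OuJ (right) lungs, 6 h of ozone before air in each strain. Points are mice, and bars are mean ± SD of 3 mice. HeJ exposed and air mice overlap in Npr3, Mt2 and Mt1, OuJ exposed and air mice do not overlap in any of the 4 genes, and the HeJ air mice lie above the OuJ air mice in all 4, in Gclc by the narrowest margin.

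Longer exposures of HeJ mice are set against the same 3 air arrays, so the 3 comparisons are not independent. The 24 and 48 h arrays also carry another series of sample codes than the air and 6 h arrays, so time and code series cannot be told apart there. Against 3 genes at 6 h, 569 (7.11%) passed at 24 h and 967 (12.1%) at 48 h. Wdr36 was 2.02 above air at 6 h, 1.98 at 24 h and 1.77 at 48 h, and it passed at each time. Wnt3a stood at -0.82, -0.80 and -0.62 and passed at each time too. Lum stood at -0.78, -0.42 and -0.53 and passed at 6 and 48 h, with an adjusted p of 0.0763 at 24 h. Npr3 stood at -0.20, 0.84 and 0.14 and passed at 24 h. The median of the glucocorticoid list was 0.66 at 6 h, 0.62 at 24 h and -0.03 at 48 h.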

How the data were processed

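RNA of the left lung lobe of 24 male mice, 3 in each of 8 groups, was hybridised to 1-colour Affymetrix Mouse 430A 2.0 arrays. The deposited values are linear signal intensity per probe set, made by the authors with GCOS 1.4 per the submitters' processing notes, and every array had nearly the same mean after trimming 2% at each end. The sources do not state the GCOS settings.

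Of 22690 probe sets, 20380 have 1 gene symbol, 691 several and 1555 none, and 64 are controls. A probe set was kept where 3 or more of the 24 arrays exceeded 218.3, the overall median signal (12895 passed), and the one with the highest mean stands for its gene, which left 8008 genes. Differences of log2(signal + 16) were tested with limma 3.58.1 (R 4.3.3, trended eBayes, 1 mean per group over all 24 arrays), with Benjamini-Hochberg adjustment over the 8008 genes and a threshold of 0.05. Errors of differences are standard errors. The strain difference is the HeJ 6 h change minus the OuJ 6 h change in the same fit. The steps were tested on simulated data. The labels do not say whether mice of a group came from separate exposures, so p-values measure only the spread between these samples.

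Named are genes past the adjusted threshold in HeJ or in the strain difference, the 12 largest differences each way among genes at an unadjusted p under 0.05 whose groups do not overlap, up to 4 members per list with the smallest p under 0.05, and 14 fixed genes. Other genes named were chosen after their values were seen. The members and the 46 lists (685 of 987 entries measured) were chosen with earlier results of these data known. The labels do not say whether replicate numbers pair mice, and the main fit did not pair them. Deviations of same-numbered 6 h and air arrays correlated at 0.10, -0.01 and -0.02 in HeJ. In OuJ they correlated at 0.01, 0.06 and 0.09. With 3 arrays a group these values cannot settle whether mice were paired. Promoters come from RefSeq (GRCm38.p6). The alternatives tried were normalization, centring, pseudocounts of 1 and 64, filters, probe set choice, array weights, subsets of arrays, a replicate block and leaving out each mouse.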

Additional observations from a re-analysis of the deposited data

Results flagged for a closer look

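Npr3, the natriuretic peptide clearance receptor, differed in its 6 h change between the strains by -2.05 ± 0.31 (limma, adjusted p = 0.00773), at -0.20 in HeJ and 1.85 in OuJ. It was lost in the fit on the groups compared, which are code series 3, and without the arrays whose sample code has a suffix. It was also lost without HeJ air replicate 1, OuJ air replicate 2 or OuJ 6 h replicate 3. The 3 probe sets of Npr3 gave -0.20, -0.12 and -0.19 in HeJ.

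Wdr4, a WD-repeat subunit of a tRNA methyltransferase, lay above all air arrays in the 3 exposed HeJ mice and below all air arrays in the 3 exposed OuJ mice. The changes were 1.24 in HeJ and -0.51 in OuJ, a difference of 1.75 with an adjusted p of 0.592. Its other probe set gave 0.12 in HeJ.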

How the results depend on the processing

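The count of 3 genes past the adjusted threshold in HeJ was 0 with quantile normalization, without the filter, in the fits on the 6 arrays compared, on code series 3 and on the HeJ arrays, and without the arrays whose sample code has a suffix, 1 with a pseudocount of 64 and 7 with array weights. Leaving out 1 mouse gave 0 to 59 genes: 59 without exposed replicate 1, 0 without exposed replicate 2 or 3 or air replicate 1, and 1 without air replicate 2 or 3. The 721 genes at an unadjusted p became 1083 probe sets when all were used and 416 to 1088 genes without 1 mouse. The 994 genes without overlap became 1638 to 2230 with 1 mouse fewer, where fewer values must be apart. The single strain difference was 0 in the fit on the groups compared, which are code series 3, and without the suffix arrays. It was 0 to 3 without 1 mouse. With the replicate block 3 genes passed (Cebpd, Wdr36 and Wnt3a) and 760 were at an unadjusted p. The block left the strain difference at 1 gene. Of 22 settings, Wdr36 and Wnt3a passed in 11 and Lum in 7. Of 2251 values of 108 named genes, 2182 kept their direction and side of the threshold and 12 changed sign, all in genes near 0. These were Marco with array weights (-0.0041), Tlr4 (0.0462), Cd14 (-0.0970) and Hmox1 (0.0158) without the suffix arrays, and without 1 mouse Tlr4 (-0.1412 to 0.0918), Marco (-0.1736 to 0.2461), Npr3 (-0.4544 to 0.008), Cd14 (-0.0697 to 0.206) and Hmox1 (-0.264 to 0.0207). The cause of these shifts was not tested. Of 460 list medians 16 moved. With 3 mice a group, small changes in dim genes cannot be resolved.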
